A study of Homo sapiens with 4 samples.

Results

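The miR-148 and miR-152 family was followed through small RNA libraries of a pair of human breast lines and of the exosomes (small RNA-carrying vesicles shed by cells) purified from their cultures. MDA-MB-231 comes from a triple-negative breast cancer and has mesenchymal features, and MCF-10A comes from mammary epithelium and is not transformed. The members were chosen by name, as the rows hsa-miR-148a, hsa-miR-148b and hsa-miR-152 without star names, which are 3 of the 1100 mature names listed for each library. The groups were MDA-MB-231 exosomes, MDA-MB-231 cells, MCF-10A exosomes and a library labelled as MCF-10A cells (the MCF-10A cell-labelled library), with 1 library each. MDA-MB-231 was grown in DMEM with fetal bovine serum at 10%. MCF-10A was grown in DMEM/F12 with horse serum at 5%, hydrocortisone, cholera toxin, EGF and insulin, so serum and line cannot be told apart. With 1 library a group no difference below has a replicate check and none has a p-value. The intervals given are 95% intervals for counting error only.

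The family shares its seed, the bases near the 5′ end that pair with target messenger RNAs. It is best known for repressing DNMT1, the enzyme that maintains DNA methylation, and HLA-G, a ligand that restrains immune cells. Silencing of these miRNA genes by DNA methylation has been described in breast and other cancers. miR-148a also limits the LDL receptor in liver, where it is abundant, and miR-152 lies within the gene COPZ2 and miR-148b within its paralogue COPZ1, which encode subunits of the coat of transport vesicles.

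The mature sequences are shown because all of what separates the members lies outside the seed. They are from RefSeq on GRCh38.p14, written 5′ to 3′ with the seed (bases 2 to 8) in capitals, and all 3 members were matched.
miR-148a (chr7:25949922-25949943, minus strand): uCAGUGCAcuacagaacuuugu
miR-148b (chr12:54337278-54337299, plus strand): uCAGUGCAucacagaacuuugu
miR-152 (chr17:48037174-48037194, minus strand): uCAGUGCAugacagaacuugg

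Of 2545 mature entries in the RefSeq table, these 3 alone have CAGUGCA at bases 2 to 8. Counted from the 5′ end, miR-148a and miR-148b are identical at 20 of 22 bases and differ by C9U and U10C. miR-152 is 21 bases long and differs from miR-148a by C9U, U10G and U20G, and from miR-148b by C10G and U20G. With so few differing bases, the division of reads among the members rests on how mismatches were treated in mapping, which is not given in the sources used here. Another 5 RefSeq entries, among them miR-301a-3p and miR-130b-3p, begin with the same 7 letters at base 1, so their seed is shifted by 1 base and they are not members.

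The hairpin precursors are shown to place the arm that was counted, with the mature sequence in capitals.
MIR148A (chr7:25949919-25949986, minus strand): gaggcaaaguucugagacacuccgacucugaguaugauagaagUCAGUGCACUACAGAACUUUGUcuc
MIR148B (chr12:54337216-54337314, plus strand): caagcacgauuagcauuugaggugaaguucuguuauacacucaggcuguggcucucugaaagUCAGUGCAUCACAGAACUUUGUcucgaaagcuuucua
MIR152 (chr17:48037161-48037247, minus strand): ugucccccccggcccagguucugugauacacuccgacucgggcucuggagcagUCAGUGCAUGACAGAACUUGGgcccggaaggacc

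Each mature sequence lies on the 3′ arm of its hairpin. In GENCODE release 29, MIR148A overlaps no other gene, MIR148B lies in an intron of COPZ1 and of AC078778.2 on the same strand, and MIR152 lies in an intron of COPZ2 on the same strand.

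Before the values, the content of the libraries has to be stated. Whole reads recovered from the deposited values gave depths of 1254641 to 10937895 miRNA reads, with the exosome libraries at the low end. In the MCF-10A cell-labelled library, 39 miRNAs of other tissues (muscle, stroma, endothelium, blood, liver, nerve, placenta, and gut, kidney and pancreas) were all above 0 and held 49.5% of the reads. The same names held 2.47% in MDA-MB-231 exosomes (27 of 39 above 0), 0.132% in MDA-MB-231 cells (23 above 0) and 0.150% in MCF-10A exosomes (20 above 0). The 6 placental names were at 0 in those other 3 libraries. The epithelial list (miR-200a, miR-200b, miR-200c, miR-141, miR-205 and miR-203) held 0.0210% and 0.0370% in MDA-MB-231 exosomes and cells, against 4.40% in exosomes of MCF-10A and 0.991% in the MCF-10A cell-labelled library. In such a library a higher level per cell and reads from other cells cannot be told apart. Comparisons of member levels that rest on it are also given without it, where another library could take its place or it could be dropped.

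All members were measured in every library. Levels stand on the deposited scale, log2 of 1 plus the reads per 10000000 miRNA reads, and are followed by the share of all miRNA reads. Every read is a whole short RNA, so levels need no division by length, but sequences differ in how well they ligate and levels of different miRNAs are not molar amounts.

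miR-148a was the most abundant member in each library. Its log2 level was 15.86 in exosomes of MDA-MB-231 (0.595% of reads, interval 0.583 to 0.607), 14.31 in cells of MDA-MB-231 (0.203%, 0.200 to 0.206), 14.27 in exosomes of MCF-10A (0.198%, 0.190 to 0.206) and 14.92 in the MCF-10A cell-labelled library (0.310%, 0.307 to 0.313). The order of the libraries was thus MDA-MB-231 exosomes, the MCF-10A cell-labelled library, and then cells of MDA-MB-231 and exosomes of MCF-10A, whose intervals overlap. It ranked 22 of 508 names above 0 in exosomes of MDA-MB-231, 41 of 566 in cells of MDA-MB-231, 35 of 436 in exosomes of MCF-10A and 46 of 794 in the MCF-10A cell-labelled library. By comparison, miR-21, the leading name of 3 of the libraries, stood at 21.85, 21.94, 21.54 and 19.57 in the same order.

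miR-148b had log2 levels of 14.42 in exosomes of MDA-MB-231 (0.219% of reads, 0.212 to 0.227), 13.33 in cells of MDA-MB-231 (0.103%, 0.101 to 0.105), 12.81 in exosomes of MCF-10A (0.0718%, 0.0673 to 0.0767) and 12.91 in the MCF-10A cell-labelled library (0.0770%, 0.0753 to 0.0786). On the deposited scale both MDA-MB-231 libraries were above both MCF-10A libraries. Over reads outside the other-tissue names, MDA-MB-231 cells were instead below the MCF-10A cell-labelled library (log2 difference -0.56). The intervals of the MCF-10A libraries overlap, although the interval of their ratio (1.0003 to 1.149-fold lower in exosomes) narrowly excludes equality. Its rank ran between 43 of 508 names in MDA-MB-231 exosomes and 103 of 794 in the MCF-10A cell-labelled library.

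miR-152 had log2 levels of 11.63 in exosomes of MDA-MB-231 (486 reads, 0.0317%, 0.0290 to 0.0347), 9.53 in cells of MDA-MB-231 (542 reads, 0.00738%, 0.00678 to 0.00803), 8.36 in exosomes of MCF-10A (41 reads, 0.00327%, 0.00241 to 0.00443) and 14.07 in the MCF-10A cell-labelled library (about 18811 reads, 0.172%, 0.170 to 0.174). No interval overlaps another. It ranked 65 of 794 names in the MCF-10A cell-labelled library, 91 in exosomes of MDA-MB-231, 142 in the cells of that line and 169 in exosomes of MCF-10A.

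**Figure D1:**
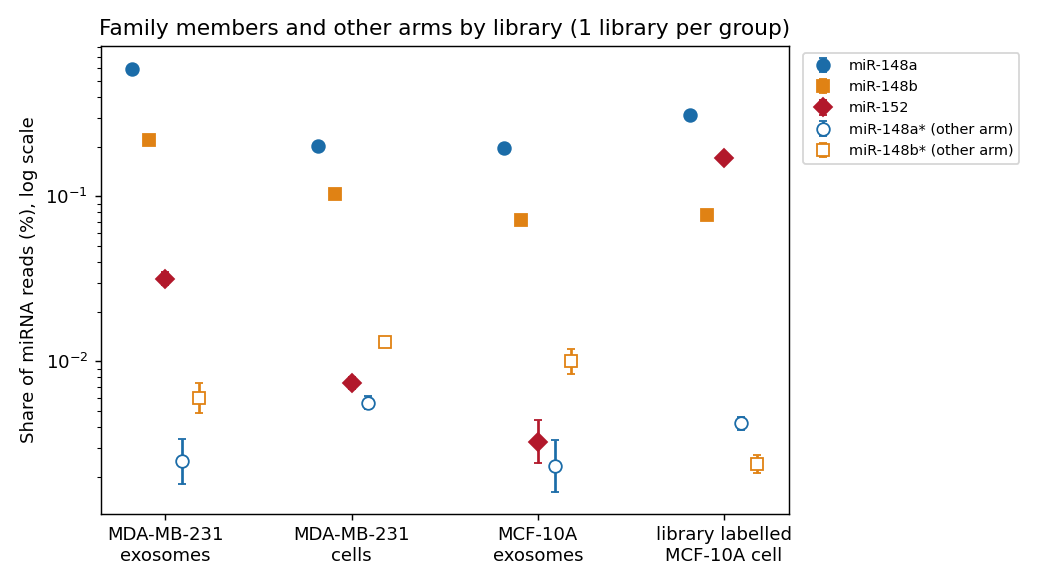
Share of miRNA reads (%, log axis) of the 3 members (filled) and of the other arms of MIR148A and MIR148B (open) in the 4 libraries, with Wilson 95% intervals for counting error, 1 library per group. miR-148a lies above miR-148b in each library, and miR-152 lies between them in the MCF-10A cell-labelled library alone of the 4.

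Across libraries the members varied unequally. The levels of miR-148a spanned 1.59 log2 units and those of miR-148b 1.61, against 5.71 for miR-152. Over the 212 names with at least 10 reads in each library the median span was 3.06, with 16.0% of names below miR-148a, 17.0% below miR-148b and 86.8% below miR-152. Without the MCF-10A cell-labelled library the spans were 1.59, 1.61 and 3.27, beside a median of 1.66.

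Summed over the members, the family held 0.846% of reads in exosomes of MDA-MB-231 (0.831 to 0.860), 0.313% in cells of MDA-MB-231 (0.309 to 0.318), 0.273% in exosomes of MCF-10A (0.264 to 0.282) and 0.559% in the MCF-10A cell-labelled library (0.555 to 0.563). Over the reads outside the other-tissue names, the last share was 1.11% and the others were 0.867%, 0.314% and 0.273%, so that the labelled MCF-10A cell library passed MDA-MB-231 exosomes.

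The make-up of the family does not depend on how libraries are scaled. miR-148a supplied 70.3% of the family's reads in exosomes of MDA-MB-231 (69.5 to 71.1), 64.8% in cells of MDA-MB-231 (64.2 to 65.4), 72.5% in exosomes of MCF-10A (70.9 to 73.9) and 55.5% in the MCF-10A cell-labelled library (55.1 to 55.9). miR-148b supplied 25.9%, 32.9%, 26.3% and 13.8% in the same order. miR-152 supplied 3.75% (3.44 to 4.09), 2.35% (2.17 to 2.56), 1.20% (0.885 to 1.62) and 30.8% (30.4 to 31.1). It was the least abundant member in both libraries of MDA-MB-231 and in exosomes of MCF-10A, and stood above miR-148b in the MCF-10A cell-labelled library.

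**Figure D2:**
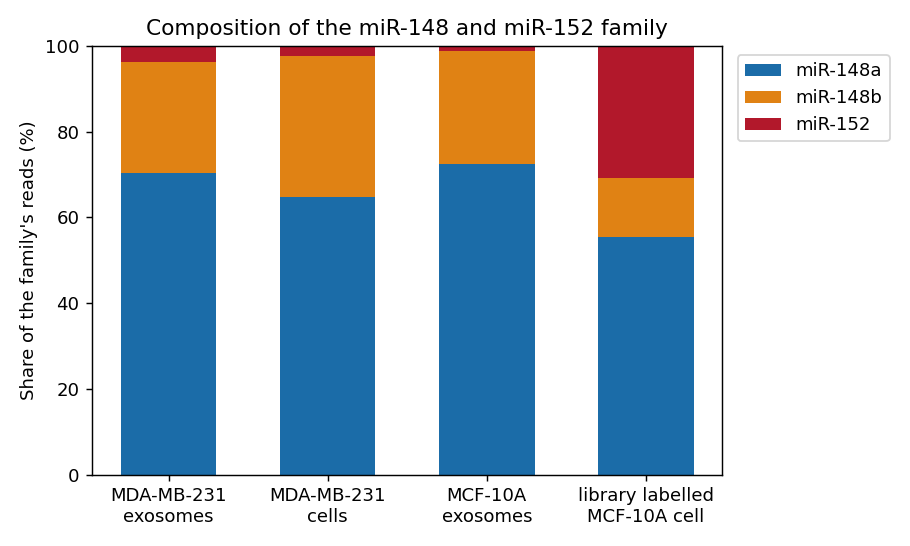
Share of the family's reads (%) taken by each member in the 4 libraries, 1 library per group. miR-152 takes 1.20% to 3.75% in 3 libraries and 30.8% in the MCF-10A cell-labelled library.

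Read ratios between members put this in numbers. There were 2.71 reads of miR-148a per read of miR-148b in exosomes of MDA-MB-231 (2.61 to 2.82), 1.97 in cells of MDA-MB-231 (1.92 to 2.03), 2.75 in exosomes of MCF-10A (2.55 to 2.97) and 4.03 in the MCF-10A cell-labelled library (3.93 to 4.13). Between the exosomes of the lines this ratio was not detectably different, with an odds ratio of 0.986 (0.904 to 1.08) for MDA-MB-231 over MCF-10A. Within MDA-MB-231 it was 1.38-fold higher in exosomes than in cells (1.31 to 1.44). There were 18.8 reads of miR-148a per read of miR-152 in exosomes of MDA-MB-231 (17.1 to 20.6), 27.5 in cells of MDA-MB-231 (25.3 to 30.0), 60.5 in exosomes of MCF-10A (44.4 to 84.5) and 1.80 in the MCF-10A cell-labelled library (1.77 to 1.83). Relative to miR-148a, miR-152 was therefore 3.22-fold more abundant in exosomes of MDA-MB-231 than of MCF-10A (2.33 to 4.56) and 1.47-fold more abundant in MDA-MB-231 exosomes than in the cells of that line (1.29 to 1.67).

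The first comparison asks how exosomes of the cancer line differ from those of the non-transformed line. All 3 members were higher in MDA-MB-231 exosomes. miR-148a was 3.01-fold (2.88 to 3.15) and miR-148b 3.05-fold higher (2.84 to 3.29), nearly the same size, while miR-152 was 9.70-fold higher (7.05 to 13.7). The log2 differences were 1.59, 1.61 and 3.27, and the summed family was 3.10-fold higher (2.99 to 3.22). Only miR-152 passed the 4-fold size used to call a difference, 1 of 3 members, where 29.3% of the 505 names with at least 10 reads per 10000000 in either library were called higher and 19.0% lower. At 2-fold all 3 members were higher, beside 43.2% of names. The family's median was 1.61, beside 0.59 over all 505 names. The members thus lie in the upper part of a broad distribution, with 32.9%, 32.7% and 24.4% of names above miR-148a, miR-148b and miR-152. Each stayed higher in MDA-MB-231 exosomes under the other 3 scalings of the libraries, which gave 0.90 to 1.62 for miR-148a, 0.92 to 1.64 for miR-148b and 2.58 to 3.30 for miR-152. The summed share of the miRNAs of other tissues was also higher in MDA-MB-231 exosomes, at 2.47% against 0.150% of reads. Among their lists the neural list alone was lower, at 0.0172% against 0.0352%, and the placental list was at 0 in both. The part of the other-tissue miRNAs in these differences was not tested.

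**Figure D3:**
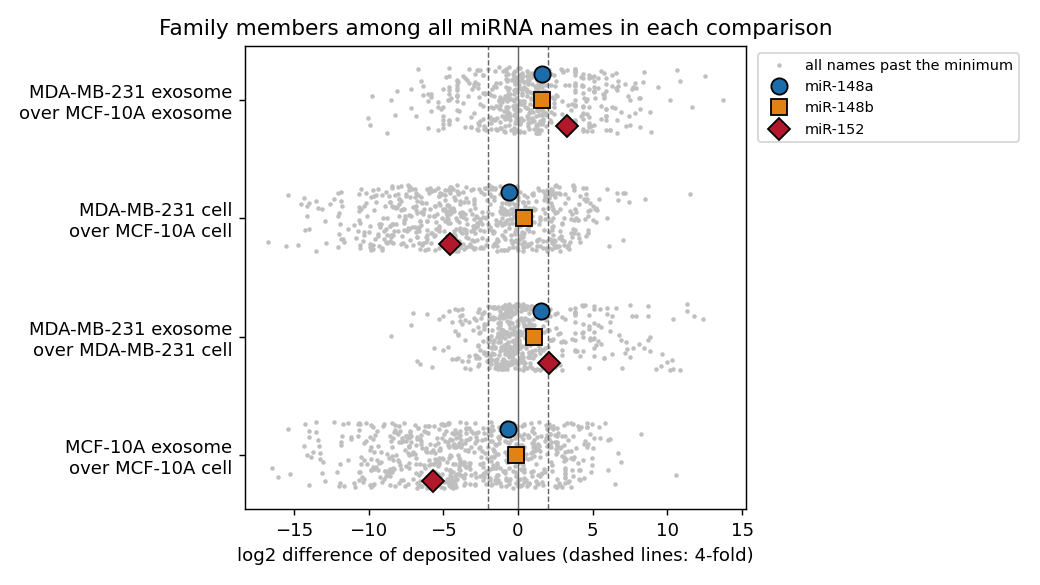
Log2 difference of the deposited values in the 4 comparisons, for the 3 members (coloured, offset vertically for clarity) and for all names with at least 10 reads per 10000000 in either library (grey), with dashed lines at 4-fold. Beside the spread of all names, miR-148a and miR-148b lie within 4-fold throughout, and miR-152 lies past 4-fold in each comparison, higher in MDA-MB-231 exosomes and lower in both comparisons against the MCF-10A cell-labelled library.

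The second comparison sets MDA-MB-231 cells against the MCF-10A cell-labelled library. In MDA-MB-231 cells miR-152 was 23.3-fold lower (21.4 to 25.4), miR-148a was 1.53-fold lower (1.50 to 1.56), and miR-148b was 1.34-fold higher (1.30 to 1.38). Of the 3 members, 1 was called lower and 0 higher, beside 54.3% of 665 names lower and 17.3% higher, so a lower call was the most common outcome. The family's median was -0.61, against -2.83 over all names, and 64.1%, 74.0% and 37.0% of names lay below miR-148a, miR-148b and miR-152. Upper-quartile scaling, which sets the upper quartile of names above 0 in either library equal and shifts all log2 differences here by 2.42, put miR-148a higher in MDA-MB-231 cells (1.81) and miR-148b past 4-fold (2.84), with 34.1% of names called higher and 37.7% lower. Scaling to reads outside the other-tissue names put miR-148b lower (-0.56), with 9.92% of names called higher and 60.8% lower, while miR-152 was lower under all scalings (-2.12 to -5.52). Against MCF-10A exosomes in place of that library, a comparison in which fraction differs as well as line, MDA-MB-231 cells had 1.03-fold the level of miR-148a (0.985 to 1.07), 1.43-fold that of miR-148b (1.34 to 1.54) and 2.26-fold that of miR-152 (1.64 to 3.18), and none was called (background 26.6% higher and 19.3% lower of 482 names). The direction for miR-152 therefore turned with the MCF-10A library used.

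The third comparison asks what exosomes hold relative to the cells that shed them. In MDA-MB-231, all 3 members were higher in exosomes than in cells. miR-152 was 4.30-fold (3.79 to 4.87), miR-148a 2.93-fold (2.85 to 3.01) and miR-148b 2.13-fold higher (2.04 to 2.22), and the summed family 2.70-fold (2.64 to 2.76). Only miR-152 passed 4-fold, with a log2 difference of 2.10 just above the limit of 2, which was 1.64 under upper-quartile scaling (19.6% of names called higher and 19.6% lower). Of all 499 names, 22.2% were called higher and 13.4% lower, and at 2-fold, which all 3 members passed, 30.7% were higher. The family's median of 1.55 compares with -0.09 over all names, and 25.3%, 29.9% and 21.6% of names lay above miR-148a, miR-148b and miR-152. The summed share of the other-tissue names was likewise higher in exosomes, at 2.47% against 0.132% of reads. Here too the neural list alone was lower, at 0.0172% against 0.0272%, and the placental list was at 0 in both. The part of the other-tissue names was not tested.

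In MCF-10A the same comparison rests on the MCF-10A cell-labelled library. miR-152 was 52.6-fold lower in MCF-10A exosomes (38.8 to 73.4). miR-148a was 1.57-fold lower (1.51 to 1.63), and miR-148b was close to equal at 1.07-fold lower (1.00 to 1.15). Here 1 of 3 members was called lower, beside 57.2% of 661 names lower and 15.4% higher. The family's median of -0.65 stands against -3.27 over all names, and 67.3%, 70.7% and 30.3% of names lay below miR-148a, miR-148b and miR-152. The signs of miR-148a and miR-148b are set by the scaling. They were -0.65 and -0.10 over all miRNA reads, 2.10 and 2.65 under upper-quartile scaling (33.0% of names called higher and 36.3% lower), 0.02 and 0.57 under median-ratio scaling (the median ratio of names to their mean over libraries), and -1.63 and -1.08 over reads outside the other-tissue names, while miR-152 ran between -2.96 and -6.69. The log2 difference of exosomes over cells was higher for MDA-MB-231 than for MCF-10A by 2.20 for miR-148a (2.13 to 2.27), 1.19 for miR-148b (1.07 to 1.31) and 7.81 for miR-152 (7.33 to 8.29). Upper-quartile scaling turned this direction for miR-148a (-1.01) and miR-148b (-2.02) but not for miR-152 (4.60). Median-ratio scaling gave 1.60, 0.59 and 7.21, and reads outside the other-tissue names 3.22, 2.21 and 8.83. No version of these values without the MCF-10A cell-labelled library can be given, since of the 4 libraries it alone is labelled as cells of that line. Of 701 names, 53.9% differed in that direction by at least 2 and 19.3% in the other, with a median of 2.91. miR-148a and miR-148b thus lie below the middle of all names, and 22.1% of names lay above miR-152.

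The other arm of a hairpin, named with a star, is normally the less stable strand, and was listed for MIR148A and MIR148B. In both comparisons of MDA-MB-231 exosomes the level of miR-148b* went against that of miR-148b. In MDA-MB-231 cells over the MCF-10A cell-labelled library both were higher (log2 differences 2.45 and 0.42). The mature sequence of miR-148b* is therefore shown, with bases 2 to 8 in capitals.
miR-148b* (chr12:54337240-54337261, plus strand): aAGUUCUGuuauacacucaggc

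miR-148b* had 92 reads in exosomes of MDA-MB-231 (log2 level 9.23), 965 in cells of MDA-MB-231 (10.36), 126 in exosomes of MCF-10A (9.97) and 262 in the MCF-10A cell-labelled library (7.91). miR-148a* had 38, 414, 29 and 463 reads in the same order (7.96, 9.14, 7.86 and 8.73). Both star names were lower in the exosomes of MDA-MB-231 than in its cells, miR-148a* by 2.27-fold (1.63 to 3.26) and miR-148b* by 2.19-fold (1.77 to 2.74), whereas the opposite arms were higher.

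The ratio of the arms is independent of scaling. There were 240 reads of miR-148a per read of miR-148a* in exosomes of MDA-MB-231 (175 to 339), 36.0 in cells of MDA-MB-231 (32.7 to 39.8), 85.5 in exosomes of MCF-10A (59.4 to 128) and 73.2 in the MCF-10A cell-labelled library (66.8 to 80.4). For MIR148B there were 36.5 reads per star read in exosomes of MDA-MB-231 (29.7 to 45.4), 7.84 in cells of MDA-MB-231 (7.33 to 8.39), 7.15 in exosomes of MCF-10A (5.93 to 8.69) and 32.1 in the MCF-10A cell-labelled library (28.4 to 36.5). The arm ratio was therefore 6.66-fold higher for MIR148A (4.76 to 9.55) and 4.66-fold higher for MIR148B (3.74 to 5.86) in exosomes of MDA-MB-231 than in its cells. Between exosomes it was 2.81-fold (1.67 to 4.68) and 5.11-fold (3.83 to 6.82) higher for MDA-MB-231 than for MCF-10A. Cells of MDA-MB-231 and exosomes of MCF-10A did not differ detectably for MIR148B, at an odds ratio of 1.10 (0.892 to 1.34). For MIR148A the ratio was lower in those cells, at an odds ratio of 0.422 (0.278 to 0.616).

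**Figure D4:**
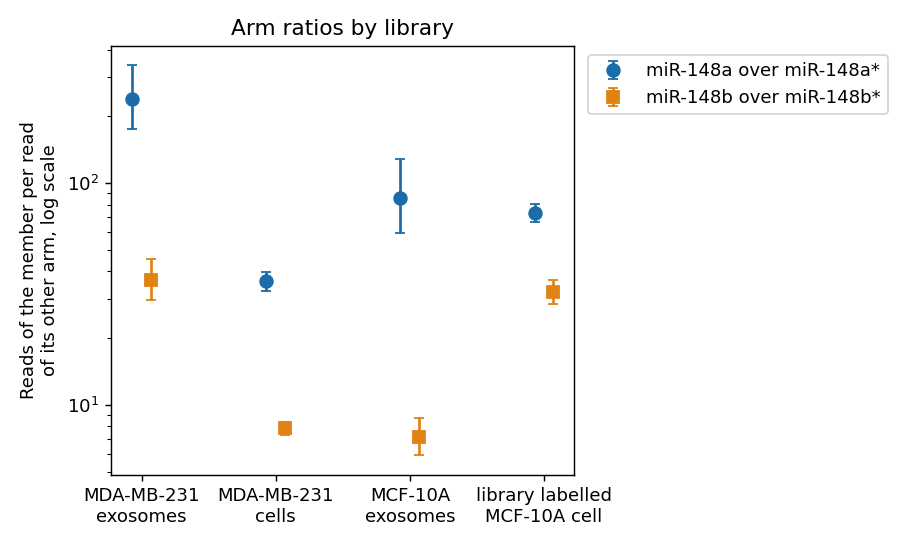
Reads of miR-148a and miR-148b per read of the other arm of the same hairpin (log axis) in the 4 libraries, with exact 95% intervals for counting error, 1 library per group. The ratios in MDA-MB-231 exosomes are 240 and 36.5, against 36.0 and 7.84 in MDA-MB-231 cells. The MIR148B ratio in MDA-MB-231 exosomes (36.5) overlaps that of the MCF-10A cell-labelled library (32.1) within counting error.

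Set among all hairpins with a plain and a star name of at least 10 reads each in both libraries, a setting chosen after the arm values were seen, the changes for MDA-MB-231 exosomes were near the top. In MDA-MB-231 exosomes over cells the arm ratio was higher for 22 of 41 hairpins (53.7%), with a median log2 change of 0.37. MIR148A, at 2.73, had 1 hairpin above it, and MIR148B, at 2.22, had 3. In MDA-MB-231 over MCF-10A exosomes it was higher for 18 of 29 hairpins (62.1%, median 0.43), with 0 above MIR148B at 2.35 and 2 above MIR148A at 1.49. Against the MCF-10A cell-labelled library they were not near the top. In MDA-MB-231 cells over that library the ratio was higher for 24 of 66 hairpins (36.4%, median -0.90), with 35 above MIR148A at -1.02 and 43 above MIR148B at -2.04. In MCF-10A exosomes over that library it was higher for 18 of 41 (43.9%, median -0.58), with 17 above MIR148A at 0.22 and 27 above MIR148B at -2.17.

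miRNAs with the most similar pattern over the 4 libraries were found by the root mean square difference of log2 levels centred on their own mean, among 211 other names with at least 10 reads in each library. For miR-148a they were miR-221 (0.23), miR-181a (0.34) and miR-210 (0.36), with miR-148b at place 5 (0.36). For miR-148b they were miR-33b (0.17), miR-221 (0.24) and miR-101 (0.29), with miR-148a at place 6. For miR-152 the nearest were miR-128 (0.69), miR-126* (0.78) and miR-26a (0.83), all highest in the MCF-10A cell-labelled library, and miR-148a and miR-148b stood at places 72 and 97. miR-128 is on the neural list of other-tissue names. Without that library, over 215 other names, the nearest were miR-652 (0.070) for miR-148a, miR-29c (0.071) for miR-148b and miR-181b (0.24) for miR-152. In that setting, chosen after seeing the data, miR-148b and miR-148a stood at places 5 and 6 for miR-152. From the other side miR-152 was far down, at place 52 for miR-148a and 59 for miR-148b (160 and 178 with all libraries). Likeness over so few libraries is a description only.

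Other miRNAs reported to target DNA methyltransferases (miR-29a, miR-29b, miR-29c, miR-101, miR-126, miR-143, miR-185 and miR-342-3p) were counted in the same comparisons. In MDA-MB-231 over MCF-10A exosomes 2 of 8 were called higher, 1 lower and 5 within 4-fold, where 29.3% of all names were higher and 19.0% lower, with a median of 1.05 beside 0.59 over all names. The 2 were miR-143 (log2 levels 15.80 and 7.40 in MDA-MB-231 and MCF-10A exosomes) and miR-126 (16.23 and 11.36), which are also on the stromal and endothelial lists, and the lower name was miR-342-3p (9.31 and 11.44). In MDA-MB-231 exosomes over cells 2 were again higher, the same names, and miR-29b was lower (11.09 and 14.12), with 5 within and a median of 0.73, where 22.2% of all names were higher and 13.4% lower, with a median of -0.09. Against the MCF-10A cell-labelled library 5 of 8 were lower in MDA-MB-231 cells (54.3% of all names) and 6 of 8 in MCF-10A exosomes (57.2%), shares near those of all names, with 0 higher in either, and their medians were -2.71 beside -2.83 over all names and -3.13 beside -3.27. Over all 4 libraries miR-101 was the member of this list closest in pattern to miR-148b (root mean square difference 0.29). Its levels were 15.28 and 14.73 in exosomes and cells of MDA-MB-231, 14.01 in exosomes of MCF-10A and 14.55 in the MCF-10A cell-labelled library. Without that library, a setting chosen after seeing the data, the closest member of this list was instead miR-29c (0.071).

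Of the miRNAs reported as methylated together with miR-148 and miR-152 in breast cancer, miR-9, a regulator of neural and epithelial genes, stood at 9.25 in exosomes of MDA-MB-231, 10.72 in cells of MDA-MB-231, 6.81 in exosomes of MCF-10A and 13.63 in the MCF-10A cell-labelled library. Between exosomes it stood 5.44-fold higher in MDA-MB-231 (3.08 to 10.3), the 1 name called of 2 measured, where 29.3% of all names were called higher. miR-9 and miR-124 are also on the neural list of other-tissue names, which held 0.0172% of reads in exosomes of MDA-MB-231, 0.0272% in cells of MDA-MB-231, 0.0352% in exosomes of MCF-10A and 0.353% in the MCF-10A cell-labelled library. miR-124 was at 0 in the first 3 of these libraries and at 13.54 in the last, and miR-663 had 7, 1, 2 and 2 reads, too few to compare.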

How the data were processed

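Per the labels' protocols, total RNA from cells and exosomes was extracted with TRIzol reagents, size-selected at 17 to 52 nt, ligated by a 5′ monophosphate-dependent method and sequenced on a Genome Analyzer IIx. The submitters' processing notes name Novoalign, edgeR and hg18 without a role or version. Exosome purification, read assignment and the miRBase release are not stated in the labels.

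The values deposited by the authors are on a log2 scale with 2 decimals. Their scale was inferred: undoing the log and subtracting 1 gives values that sum to about 10000000 per library, the low ones being whole multiples of 1 step. Reads were recovered by dividing by that step. Whole numbers lay within the rounding interval for 100% of the 286 to 334 names per library whose interval was under 0.5 reads wide, at the step giving the most of them. Larger counts are known to 0.347%. Depths were 1532908 (MDA-MB-231 exosomes), 7346076 (MDA-MB-231 cells), 1254641 (MCF-10A exosomes) and 10937895 reads (MCF-10A cell-labelled library). Levels are shares of a constant total, so abundant names lower all others.

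Names with at least 10 reads per 10000000 in either library entered a comparison, and were called at 4-fold on the deposited scale (pseudocount 1). Folds in the text are ratios of recovered reads with exact conditional binomial intervals, shares have Wilson intervals, and changes of ratios exact conditional odds ratio intervals, and differences between the lines in exosomes over cells normal approximations on the log scale, computed with scipy 1.17.1. Without molecular identifiers, PCR copies cannot be told from separate molecules. Members, lists and alternatives were chosen with earlier results of these data known. The alternatives were upper-quartile scaling, median-ratio scaling, scaling to reads outside the other-tissue names, no pseudocount, a 2-fold call and star names added. Named miRNAs are the members, their star names, the 3 nearest patterns per member, both reported lists and the leading names. Read recovery and intervals were tested on simulated data.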

Additional observations from a re-analysis of the deposited data

Results flagged for a closer look

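Each member had opposite signs of a log2 difference in a pair of comparisons. With 1 library a group these differences of differences were not tested, and each pair holds the MCF-10A cell-labelled library. Exosomes over cells gave 1.55 in MDA-MB-231 and -0.65 in MCF-10A for miR-148a, 1.09 and -0.10 for miR-148b, and 2.10 and -5.71 for miR-152. MDA-MB-231 over MCF-10A gave 1.59 in exosomes and -0.61 in cells for miR-148a, and 3.27 and -4.54 for miR-152. Against that library the signs for miR-148a and miR-148b turned with the scaling, as given above, and those for miR-152 did not under the scalings run.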

How the results depend on the processing

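No paired analysis was possible because each group holds 1 library. Ratios of recovered reads without a pseudocount moved the log2 differences of the members and the summed family by at most 0.0083. The summed family's log2 difference was 1.63 for MDA-MB-231 over MCF-10A exosomes (0.94 under upper-quartile and 1.39 under median-ratio scaling) and 1.43 for MDA-MB-231 exosomes over cells (0.97, 1.50, and 1.47 over reads outside the other-tissue names). For MDA-MB-231 cells over the MCF-10A cell-labelled library it was -0.83, and 1.59, -0.47 and -1.82 in that order of scalings, or 0.20 with MCF-10A exosomes in its place, an alternative chosen after seeing the data. For MCF-10A exosomes over the MCF-10A cell-labelled library it was -1.04, and 1.71, -0.36 and -2.02. The difference between the lines in exosomes over cells, 2.47, turned to -0.74 under upper-quartile scaling and was 1.87 and 3.49 under the others. The median of all names in the comparison of cells was -2.83, and -0.41, -2.47 and -3.81 in the same order.

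Members past 4-fold numbered 1 in each comparison, beside the shares of all names given above. Under upper-quartile scaling 1 member was higher in exosomes of the lines, where 25.9% of all names were called higher and 23.2% lower. In cells 1 was higher and 1 lower, beside 34.1% and 37.7% of names. In MDA-MB-231 exosomes over cells 0 passed, beside 19.6% higher and 19.6% lower. In MCF-10A exosomes over cells 2 were higher and 1 lower, beside 33.0% and 36.3%. With MCF-10A exosomes in place of the labelled cell library the number in cells was 0, beside 26.6% higher and 19.3% lower. At 2-fold 3 members were higher in both comparisons of MDA-MB-231 exosomes, beside 43.2% and 30.7% of names. For the difference between the lines, 2 members passed, both higher for MDA-MB-231, beside 53.9% of 701 names higher and 19.3% lower. Upper-quartile scaling gave 1 higher and 1 lower, with miR-148a turning to -1.01. Median-ratio scaling gave 1 higher, and reads outside the other-tissue names gave 3 higher. The shares of all names under those scalings are not given here, so these counts have no background beside them. The family's share of reads moved to 0.867% in MDA-MB-231 exosomes and 1.11% in the MCF-10A cell-labelled library over reads outside the other-tissue names, and to 0.332%, 0.285% and 0.566% in MDA-MB-231 cells, MCF-10A exosomes and that library with star names added. These shifts of the share follow by definition from the smaller total or from the added star reads. Depth limits miR-152 (41 reads) and miR-148a* (29 reads) in MCF-10A exosomes.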
